A study of Mus musculus with 8 samples.

Results

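The response of alveolar macrophages without the serotonin receptor 5-HT2C to serotonin was taken from the 4 arrays whose titles name them KO, of 8 arrays in all. On each of these 2-colour arrays, RNA of 5HT2C -/- cells given 10 µM serotonin for 4 h was hybridised together with RNA of unstimulated 5HT2C -/- cells. The stimulated RNA was in Cy3 on KO replicates 1 and 2 and in Cy5 on KO replicates 3 and 4. The other 4 arrays held macrophages of wild-type mice (WT), treated in the same way and with the dyes exchanged after replicate 2 in the opposite order. All mice were C57BL6N, all cells were alveolar macrophages in RPMI medium, and the labels call the arrays of a genotype biological replicates. The sources used here give neither how the receptor gene was deleted, nor the age of the mice, nor whether cells of several mice were pooled. No array held both genotypes.

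Alveolar macrophages live in the air spaces of the lung, where they take up surfactant, dust and microbes and release chemokines and cytokines. Serotonin reaches lung cells from platelets, mast cells and neuroendocrine cells. It acts through a family of receptors of which all but the ion channel 5-HT3 couple to G proteins, and 5-HT2C, like 5-HT2A and 5-HT2B, couples to Gq, which raises inositol phosphates and calcium. In cells without 5-HT2C, serotonin can still act through any other receptor of the family that they carry, so the KO arrays ask what response is left without this receptor.

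Rows of the value table are named here by number and not by gene. The probe table at hand lists 33074 row numbers with 1 gene symbol, and for 8164 symbols with several rows the mean KO ratios of the first and last row had a correlation of 0.0044. Moving the numbers by up to 1000 rows either way gave correlations between -0.035 and 0.040, and reversing the order gave at most 0.043. Gene groups, cell type markers and the deleted gene itself could therefore not be read from these arrays. A row number did stand for the same feature in both genotypes as far as could be seen from shared values. How often a row shares its exact value with other rows of an array had a Spearman rho of 0.697 to 0.767 between KO and WT arrays. Among KO arrays it was 0.761 to 0.788. Missing values could not decide this, as their correlation was -0.0023 to 0.049 between KO and WT arrays and also only 0.0034 to 0.020 among KO arrays.

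The values are log ratios, taken as log2 because limma is named in the submitters' processing notes. The sources used here do not say which channel is on top of a deposited ratio, so each result is given under both readings. Deposited values had a median of 6 digits on every array with the stimulated RNA in Cy3. On every array with it in Cy5 they had 15, and whether this bears on the direction was not tested. Turned ratios are the deposited values with the sign changed on the arrays that had the stimulated RNA in Cy3. A positive turned ratio means more RNA in stimulated cells if the files hold Cy5 over Cy3 and the dye labels are right. A positive ratio as deposited means more RNA in stimulated cells if the files hold stimulated over unstimulated. Row by row, signs are given in place of rises and falls.

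Of 44290 rows, 33447, 42682, 43817 and 43788 had a value on KO replicates 1 to 4. KO replicate 1 thus lacked 24.5% of the rows, against 1.07% to 3.63% on the other KO arrays and 2.45% to 15.3% on the WT arrays. The SD of the log2 ratios over rows was 0.182, 0.143, 0.192 and 0.136 on KO replicates 1 to 4, and the array medians lay between -0.0035 and 0.0064. KO replicate 3 had 141 rows with a ratio beyond 1 in size, against 35, 23 and 25 on KO replicates 1, 2 and 4. With turned ratios 131 of these 141 were negative, as were 28 of 35, 17 of 23 and 25 of 25 on KO replicates 1, 2 and 4. Precision is limited by there being 4 arrays, and the median standard error of a fitted KO ratio was 0.0469 on the log2 scale.

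The KO arrays went together by the dye of the stimulated RNA. Replicates 1 and 2 had it in Cy3 and replicates 3 and 4 in Cy5, so dye and whatever else differed between these arrays cannot be told apart. Over rows, the deposited log2 ratios of KO replicates 1 and 2 had a Pearson r of 0.537 and those of KO replicates 3 and 4 an r of 0.588. Across the dye exchange r was -0.600 for replicates 1 and 3, -0.534 for 2 and 4, -0.457 for 1 and 4, and -0.433 for 2 and 3. All 4 turned values had one sign in 32.6% of the 31640 rows with a value on every KO array, and all 4 deposited values had one sign in 9.04%. Rows share their arrays and are not independent, so no p-value is attached to these figures.

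The first question was which transcripts differ between stimulated and unstimulated KO cells. The 4 KO arrays were fitted alone with limma, with a term for the turned ratio and a term for the ratio as deposited, so that both readings have the same standard error in every row. Under the turned reading the KO ratio differed from 0 in 4047 of 43536 rows, 9.3% (limma, Benjamini-Hochberg adjusted p under 0.05). Of these, 2104 were positive (4.83% of rows tested) and 1943 negative (4.46%). The ratios called were mostly small, and their median size was a log2 ratio of 0.27. With 4 arrays an exact sign permutation test of a single row cannot give a p below 0.125, so these calls rest on the spread that limma borrows from all rows. On simulated data in which each row kept its moderated spread, the KO fit called more unchanged rows than the threshold allows, so the count may be too high. Without that borrowing, by least squares alone, 1 row was called, and 5640 rows had an unadjusted p under 0.05.

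The larger KO ratios were one-sided. Among the rows called with turned ratios, 233 lay below -0.5 and 82 above 0.5, and 30 lay below -1 whereas none lay above 1. Over all rows tested, the lowest and the highest 0.1% began at -0.85 and 0.56 on the log2 scale. If the files hold Cy5 over Cy3 and the dye labels are right, the large differences in KO cells were therefore mostly toward less RNA after serotonin. The imbalance below -1 was present in every alternative fit listed in the closing section other than least squares: between 19 and 40 rows were called below -1, and at most 1 above 1, which occurred without KO replicate 1 and without KO replicate 4.

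**Figure D1:**
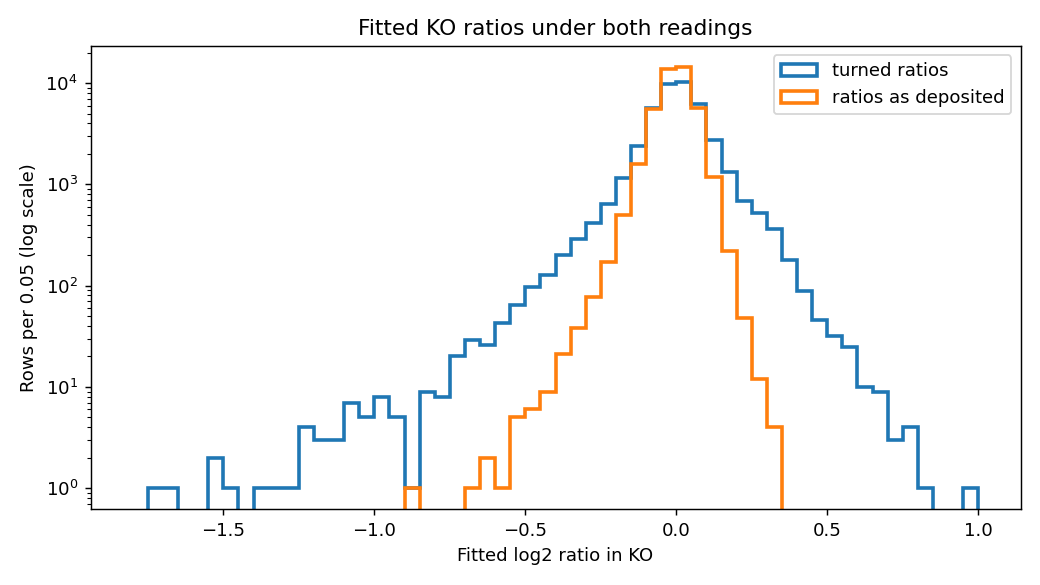
Number of rows (log axis) by fitted log2 ratio in KO, in steps of 0.05, for turned ratios (blue) and ratios as deposited (orange), over the 43536 rows tested. The turned ratios reach -1.72 on the negative side and 0.96 on the positive side, and the ratios as deposited are narrower, with 10 rows below -0.5 and none above 0.5.

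The 2 most negative rows were nearly alike on all 4 KO arrays. Row 35229 had turned log2 ratios of -1.71, -1.48, -1.90 and -1.78 on KO replicates 1 to 4, and 0.82, 0.36, 0.31 and 0.95 on WT replicates 1 to 4. Its KO mean was -1.72 ± 0.18 (SD, n = 4; limma adjusted p = 1.1e-05). KO and WT did not overlap, and every turned KO value was negative where every turned WT value was positive. As deposited, the row was positive on replicates 1 and 2 and negative on replicates 3 and 4 in both genotypes. The opposite turned signs therefore rest on the dye labels, which are exchanged in the opposite order in KO and WT. Row 27184 had -1.71, -1.40, -2.00 and -1.54 on the KO arrays, averaging -1.66 ± 0.26 (SD, n = 4; limma adjusted p = 0.000111). On WT replicates 2 to 4 it had 0.21, 0.16 and 0.90, with no value on WT replicate 1. It too changed side between the genotypes when turned, and as deposited had the same sign on same-numbered arrays of both.

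The most positive rows were about as regular and smaller. Row 523 had turned log2 ratios of 0.84, 1.04, 1.02 and 0.95 on KO replicates 1 to 4, averaging 0.96 ± 0.09 (SD, n = 4; limma adjusted p = 0.000111). Its WT values, 0.04, -0.37, 0.09 and 0.16, lay on both sides of 0 and below all KO values. Row 37531 had 0.97, 0.69, 0.87 and 0.69 on the KO arrays, averaging 0.81 ± 0.14 (SD, n = 4; limma adjusted p = 0.000528). Its WT values of -0.25, -0.22, -0.23 and -0.07 were all negative, and as deposited it too had the same sign on same-numbered arrays of both genotypes. As deposited, these 4 rows had KO means between -0.12 and 0.02, and none was called.

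**Figure D2:**
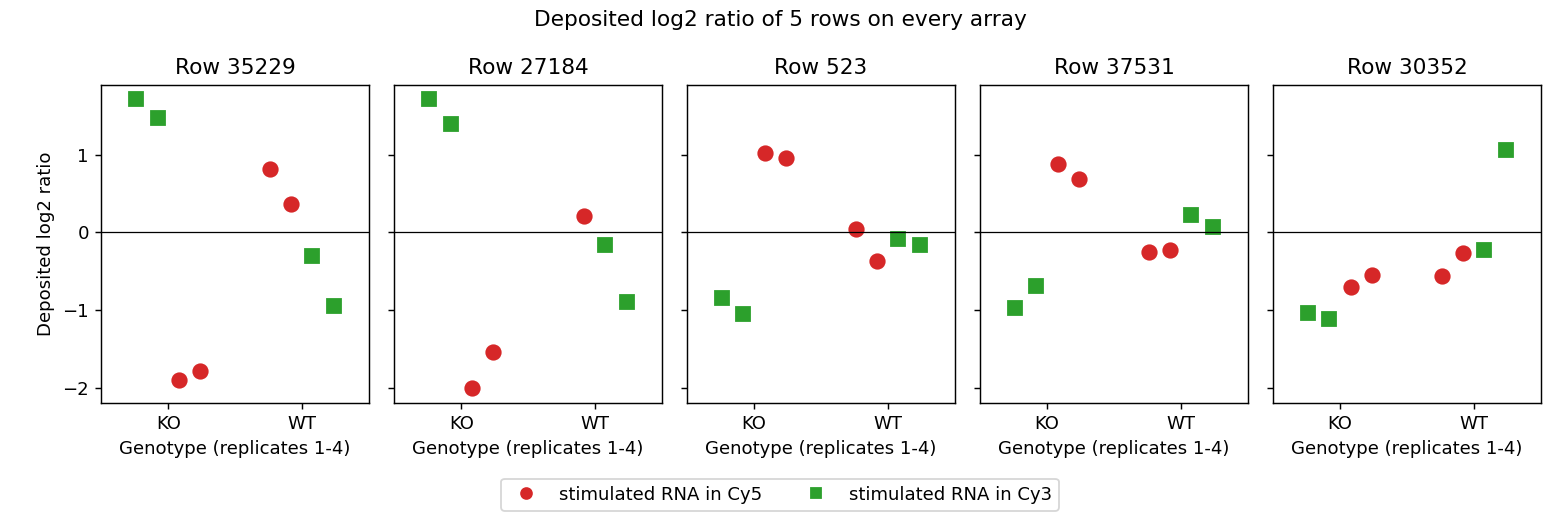
Deposited log2 ratio (vertical axis) of 5 rows on KO replicates 1 to 4 and WT replicates 1 to 4, from left to right, with red circles for arrays that had the stimulated RNA in Cy5 and green squares for Cy3. In rows 35229, 27184, 523 and 37531 the KO values change sign with the dye, and in row 30352 all 4 KO values are negative.

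As deposited, 1 of 43536 rows differed from 0 in KO cells, 0.0023% (limma, Benjamini-Hochberg). At an unadjusted p under 0.05 there were 2553 rows. The row called, 30352, had log2 ratios of -1.04 and -1.11 on KO replicates 1 and 2 and of -0.70 and -0.55 on KO replicates 3 and 4, averaging -0.85 ± 0.27 (SD, n = 4; limma adjusted p = 0.00211). It was negative on each KO array, and larger on the arrays with the stimulated RNA in Cy3. Its WT values were -0.56, -0.26, -0.22 and 1.06, which overlap with those of KO. The fitted KO ratio of the same row as a turned ratio was 0.23 (limma adjusted p = 0.0174). Over all rows the ratios as deposited also reached further down than up, with 161 fitted ratios below -0.25 and 16 above 0.25. Without KO replicate 4 the number called was 51, of which 50 were negative, and without KO replicate 2 it was 0 (smallest limma adjusted p = 0.151, 2445 rows at an unadjusted p under 0.05).

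Most rows called seldom share an exact value with other rows. Rows were put into 4 equal groups by how often they share values on the WT arrays. This measure uses no KO ratio but is made from the WT ratios, and how it relates to their size was not tested. Channel intensities were not used here, so how this measure relates to signal was not tested either. With turned ratios, 26.6% of the KO rows in group 1, which seldom share values, were called by the limma test. In groups 2, 3 and 4 the shares were 7.80%, 1.97% and 0.594%, around 9.3% for all rows. The SD of the fitted KO ratios had the same order, with 0.206, 0.120, 0.076 and 0.061, whereas the median standard error hardly differed (0.0483, 0.0491, 0.0454 and 0.0447). Of the 82 rows called above 0.5, 81 were in group 1, and of the 30 below -1, 26 were. Rows without a value on KO replicate 1 came less from group 1 (8.54%, against 30.0% of the rows with a value), and 2.24% of them were called, against 11.4% of the others.

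In group 1 the KO arrays also went together in a second way, which does not depend on the reading of the direction. Across the dye exchange, the sizes of the ratios in these rows were most alike on replicates 1 and 3 and on replicates 2 and 4. Over 9733 rows of group 1 with 4 values, the Spearman rho of the sizes was 0.388 for KO replicates 1 and 3 and 0.339 for 2 and 4. It was 0.208 for replicates 1 and 4 and 0.261 for 2 and 3. Within a dye orientation it was 0.310 for replicates 1 and 2 and 0.348 for 3 and 4. In groups 2 to 4 this order did not hold: replicates 2 and 4 had 0.174, 0.047 and 0.029, against 0.175, 0.054 and 0.048 for 2 and 3, and in group 4 replicates 1 and 3 had 0.024, against 0.050 for 1 and 4. Among the 298 rows called beyond 0.5 in size with 4 values, the 2 largest sizes were on replicates 1 and 3 in 129 rows and on 2 and 4 in 40. They were on replicates 3 and 4 in 76 rows, on 2 and 3 in 28, on 1 and 2 in 20 and on 1 and 4 in 5. With the arrays scaled to one spread the counts were 88 for replicates 1 and 3, 66 for 2 and 4, 108 for 3 and 4, 17 for 2 and 3, 14 for 1 and 2 and 5 for 1 and 4.

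Expressed as a contrast of turned ratios, replicates 1 and 3 against 2 and 4 had an SD over rows of 0.093 in group 1, against 0.053 for replicates 1 and 4 against 2 and 3. The same order, with a smaller gap, was seen in group 2 (0.063 and 0.050), and in group 3 the SDs were 0.044 and 0.043. In group 4 the SDs were 0.041 for both contrasts. Over all rows with 4 values they were 0.067 and 0.048 in KO, in the same order of contrasts. In WT they were 0.060 and 0.069, so there the pairing of replicates 1 and 3 did not stand out. A pair of rows chosen after their values were seen shows the extremes. Row 23416 had turned log2 ratios of -1.43 and -1.67 on KO replicates 1 and 3 and of -0.33 and -0.33 on KO replicates 2 and 4. Row 39949 had -0.36 and -0.59 on KO replicates 1 and 3 and -0.93 and -0.95 on KO replicates 2 and 4. Both were negative on each turned KO array, and in both the gap between the pairs was wider than the gap within either pair.

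The labels number the 4 KO arrays as separate biological replicates, and whether arrays 1 and 3, or 2 and 4, shared RNA of the same cells is not given in the sources used here. Were they counted as 2 samples in place of 4, a choice made after seeing the data, 1865 of 31640 rows were called with turned ratios by limma on the averaged pairs (937 positive, 928 negative). With 4 separate arrays, 3684 of the same 31640 rows were called. Of the 1865 rows, 1857 were also among the 4047, and 26 lay below -1 and none above 1. As deposited the averaged pairs gave 533 rows (125 positive, 408 negative), against 1 with separate arrays. The smallest limma adjusted p as deposited was then 1.78e-11. With 2 values per row, both counts of averaged pairs rest on the spread that limma borrows from all rows and may be too high.

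**Figure D3:**
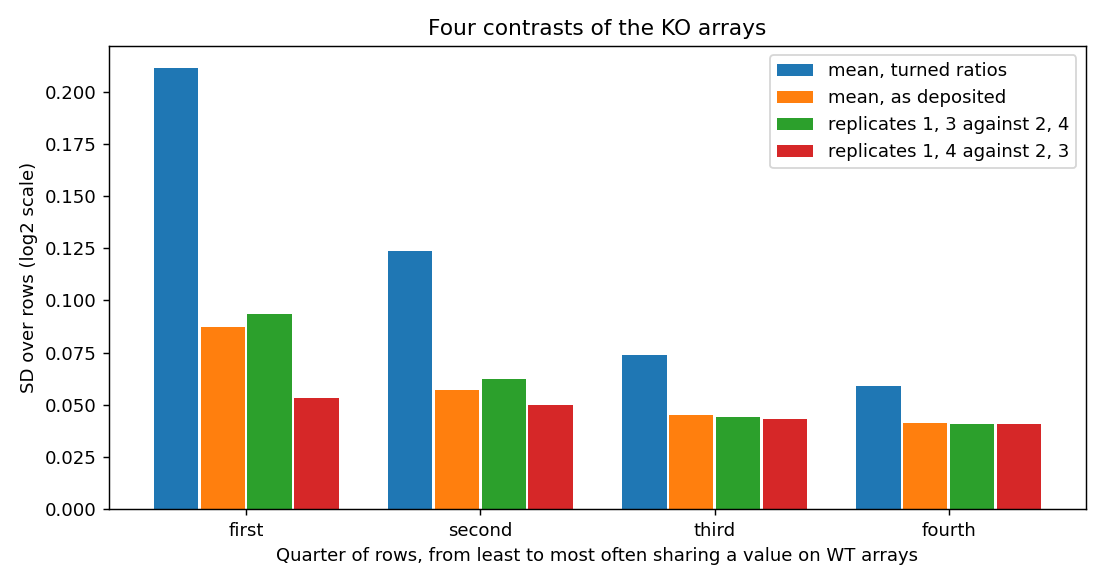
SD over rows (log2 scale) of 4 contrasts of the turned KO ratios, for 4 groups of rows, from those that least often (1) to those that most often (4) share an exact value on the WT arrays: the mean, the mean as deposited, replicates 1 and 3 against 2 and 4, and replicates 1 and 4 against 2 and 3. In group 1 replicates 1 and 3 against 2 and 4 (0.093) stand above the other pairing (0.053), less so in group 2 (0.063 and 0.050), and in group 4 both are at 0.041.

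KO ratios also drifted along the order of the rows. Of the rows in the first of 20 equal blocks of the table, 6.43% were called positive and 3.19% negative with turned ratios (4.83% and 4.46% over all rows). In the last block 3.67% were called positive and 5.36% negative. The median turned KO ratio was 0.012 in the first block, 0.029 in the third and -0.024 in the last, whereas the median turned WT ratio stayed between -0.0038 and 0.0053 over the 20 blocks. Taking a running median over 2001 rows from each array, a choice made after seeing the data, left 3973 rows called, 3813 of them among the 4047, with 2005 positive and 1968 negative. The rows below -1 were spread over the table, with 14 in the first 22145 rows and 16 in the last.

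**Figure D4:**
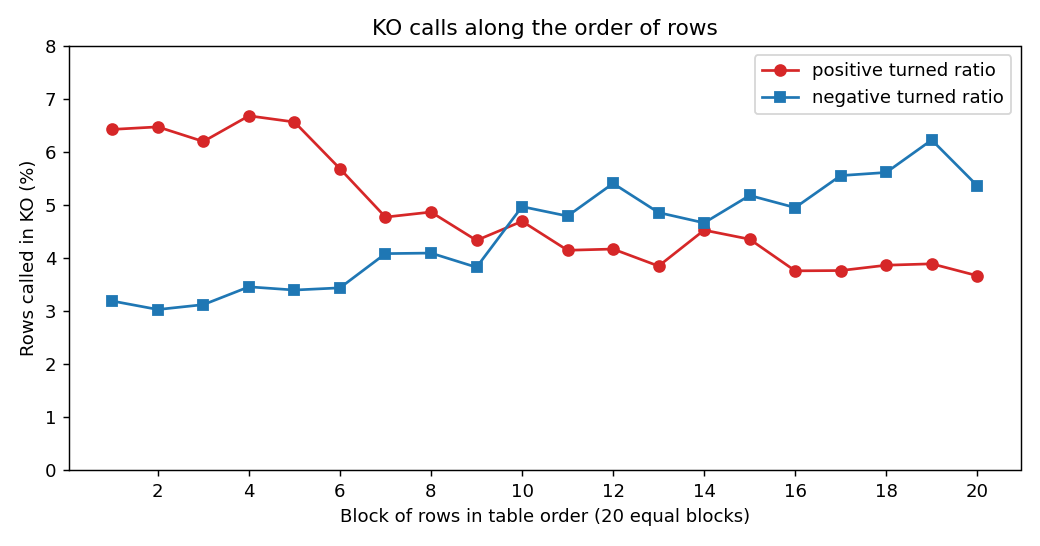
Share of rows tested that were called in KO with a positive (red circles) or a negative (blue squares) turned ratio, in 20 equal blocks of rows in the order of the table. The positive share is 6.43% in the first block and 3.67% in the last, and the negative share 3.19% in the first and 5.36% in the last.

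The KO ratios were then set against WT, to ask where the response without the receptor differs from that with it. Since no array held both genotypes, genotype and whatever else differed between the hybridisations of the KO and the WT arrays cannot be told apart. In a limma fit over all 8 arrays with a dye term for each genotype, the turned ratio differed between KO and WT in 5016 of 40891 rows, 12.3% (Benjamini-Hochberg adjusted p under 0.05). KO was higher in 2819 rows (6.89%) and lower in 2197 (5.37%). The largest differences were again toward lower values in KO: 59 rows had KO minus WT below -1 on the log2 scale and 8 had it above 1. As deposited, 106 rows differed, 0.259%, with KO higher in 28 (0.0685%) and lower in 78 (0.191%).

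Row 35229 had the most negative difference, with a KO mean of -1.72 ± 0.18, a WT mean of 0.61 ± 0.32 (SD, n = 4 each) and a difference of -2.33 (SE 0.14; limma adjusted p = 3.8e-05). Row 20686 followed at -2.23 (SE 0.18; limma adjusted p = 0.000158). It had turned log2 ratios of -1.32, -1.37, -1.59 and -1.88 on the KO arrays and of 1.17, 0.31, 0.31 and 0.97 on the WT arrays, again with each KO array negative and each WT array positive. The most positive differences came more from WT than from KO. Row 23099 had 0.69, 0.25, 0.54 and -0.09 on the KO arrays and -0.89, -0.90, -0.60 and -0.76 on the WT arrays, a difference of 1.14 (SE 0.13; limma adjusted p = 0.000615). Row 7803 had 0.42, 0.29, 0.23 and 0.35 on the KO arrays and -0.79, -0.31 and -1.11 on WT replicates 1, 3 and 4, a difference of 1.08 (SE 0.16; limma adjusted p = 0.00295). In KO alone row 7803 was called (limma adjusted p = 0.0047) and row 23099 was not (limma adjusted p = 0.08). As deposited, rows 20686 and 7803 had the same sign on same-numbered arrays of both genotypes, as did row 23099 except on KO replicate 4.

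As deposited, the largest differences lay in rows where KO was nearer 0 than WT. Row 18866 had log2 ratios of 0.35, 0.24, 0.24 and -0.18 on the KO arrays and of 1.62, 1.56, 1.92 and 1.95 on the WT arrays, a difference of -1.60 (SE 0.08; limma adjusted p = 3.58e-05). Row 42029 had 0.03, 0.16, 0.61 and 0.38 on the KO arrays and 2.47, 2.06, 1.31 and 1.36 on the WT arrays, a difference of -1.504 (SE 0.09; limma adjusted p = 8.9e-05). In both rows all WT values exceeded all KO values. On the other side row 27203 had -0.16, 0.13, -0.01 and 0.13 on the KO arrays and -0.63, -0.88, -1.10 and -0.89 on the WT arrays, a difference of 0.90 (SE 0.09; limma adjusted p = 0.00239). Row 35347 stayed within 0.14 of 0 on the KO arrays, with -0.03, 0.03, -0.13 and 0.03, against -0.39, -0.93, -0.70 and -0.97 on the WT arrays (difference 0.72, SE 0.11; limma adjusted p = 0.0314). That call was lost in 11 of 22 alternatives, among them the fit without a dye term (limma adjusted p = 0.303) and the fits without any one of the KO arrays (0.0556 to 0.113). None of these 4 rows was called in KO as deposited.

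**Figure D5:**
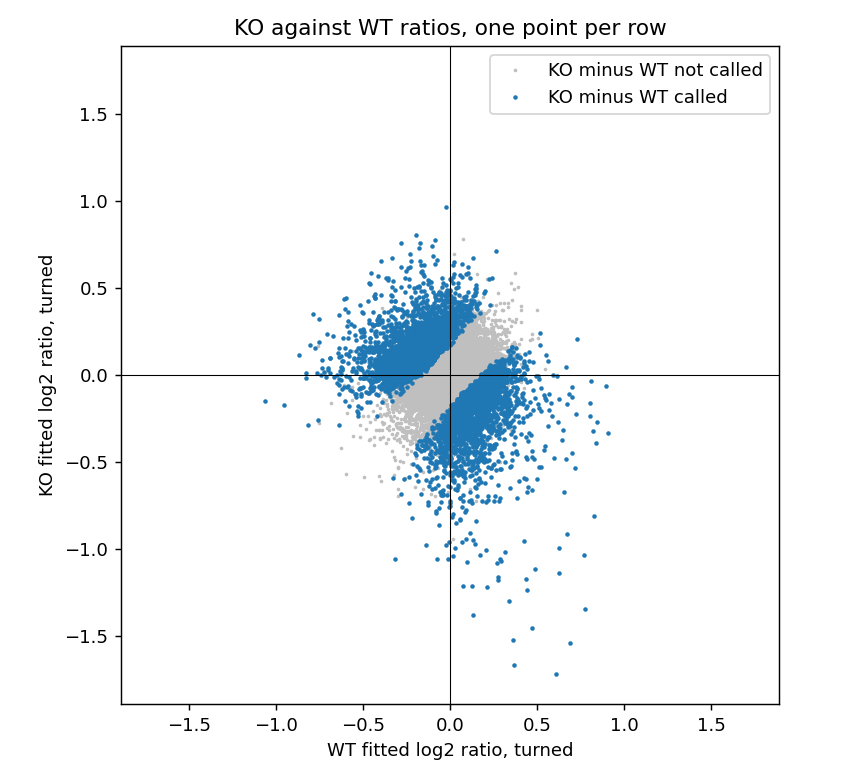
Fitted turned log2 ratio in KO (vertical axis) against WT (horizontal axis), one point for each of 40891 rows, with the 5016 rows whose difference was called in blue. The rows furthest down in KO lie mostly at positive WT values. These opposite signs rest on the dye labels, which are exchanged in the opposite order in KO and WT.

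The rows with the most negative turned KO ratios mostly had positive turned ratios in WT. Of the 30 rows called below -1 in KO, 29 had at least 3 WT values, and 25 of those 29 (86.2%) had a positive mean turned ratio in WT. Over all rows tested the share was 50.6%, and the share over group 1, which held 26 of the 30 rows, was not computed. Whether the rows stand for separate transcripts could not be told. The turned log2 ratios of the 30 rows had medians of -1.20, -0.89, -1.45 and -1.27 on KO replicates 1 to 4, and of 0.48, 0.16, 0.07 and 0.42 on WT replicates 1 to 4. No KO value was positive, the highest being -0.70, -0.29, -1.19 and -0.52 on the 4 arrays, but the rows were chosen on these same KO values. All WT values were positive in 18 of the 29 rows (62.1%, against 16.1% of all rows) and all were negative in 1 (3.45%, against 16.6%). The difference between KO and WT was called in 29 of 29 rows, to which the choice of rows by their KO ratio contributes. Leaving out each WT array in turn gave 25 to 27 of 29 rows with a positive WT mean. As deposited, the same 30 rows had a median size of 0.17 and at most 0.31 in KO.

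This pattern of opposite turned signs was weaker with smaller KO ratios. Of 203 rows called between -1 and -0.5 in KO, 199 had at least 3 WT values, and 62.8% of those 199 had a positive WT mean. Of 981 rows between -0.5 and -0.25, 966 had at least 3 WT values, and the share was 50.2%. On the positive side more rows lacked WT values, and 906 of 1116 rows between 0.25 and 0.5 had at least 3. A positive WT mean was found in 47.6% of these 906 rows and in 37.8% of 82 rows above 0.5. The median KO ratio was -1.15 in the rows below -1, with a WT median of 0.29, and 0.56 in the rows above 0.5, with a WT median of -0.11. The rows were chosen by their KO ratio alone, so these sizes are not compared between the genotypes. Over all 3735 rows called in KO with turned ratios and tested in both genotypes, 52.3% had the opposite sign in WT, against 48.7% of all rows tested. Of these 3735 rows, 2296 (61.5%) were also among the 5016 that differed between KO and WT, of which they made up 45.8%. Both calls use the same 4 KO arrays, so nothing is read from this overlap, and 12.3% of all rows tested differed between KO and WT.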

How the data were processed

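RNA of alveolar macrophages was measured on 8 arrays with 2 colours each after labelling with the Agilent QuickAmp kit, per the labels. The authors deposited 1 log ratio per row and array, taken here as log2 because the submitters' processing notes name limma, without a version. The sources used here do not give the log base, background correction, normalisation or direction of these values. If the log base differs, all sizes change by one factor and no test does.

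Group and dye came from the sample titles and channel labels. Rows with at least 3 KO values were fitted with lmFit and eBayes (limma 3.58.1, R 4.3.3), with a term that keeps its sign on all arrays and one that changes it with the dye. The KO minus WT fit needed at least 3 values per genotype. Benjamini-Hochberg adjustment ran over every row tested, with a threshold of 0.05. Fitted values were summarised with pandas 2.3.3 (numpy 2.4.6, Python 3.11.15). The fit was tested on simulated data. It kept its threshold where the spread of rows followed limma's model, and called more unchanged rows than that where each row kept its moderated spread. The simulated rows were drawn independently of each other, so the size of any excess in the real data was not measured.

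The rows and measures were chosen with earlier results of these data known. Named rows are at most the 2 most positive and 2 most negative called in each comparison, under each reading. The gene lists and cell type markers planned were not run, since row numbers could not be matched to genes. Same-numbered KO and WT arrays did not deviate together (r of -0.064 to -0.011 over rows), so replicate numbers were not taken as pairs. Alternatives changed the dye term, centring, scaling, filters, moderation, array weights and arrays in the fit.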

Additional observations from a re-analysis of the deposited data

Results flagged for a closer look

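Of 36 sets of 4 values, 3 held one that stood well apart, where about 1.8 would do so by chance. On KO replicate 1, 10843 rows lacked a value. KO replicate 3 had 141 rows with a log2 ratio beyond 1 in size. In row 37531 the turned value of WT replicate 4, -0.06519, was closer to 0 than on the rest of the WT arrays.

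The ratios of KO and WT differed by a limma test of the difference itself in 5016 rows under the turned reading and in 106 as deposited. With turned ratios the KO minus WT differences of the rows named were -2.33 in row 35229, -2.03 in row 27184, -2.23 in row 20686, 0.99 in row 523, 0.9999 in row 37531, 1.14 in row 23099, 1.08 in row 7803 and -0.77 in row 39949. As deposited they were -1.60 in row 18866, -1.504 in row 42029, 0.90 in row 27203 and 0.72 in row 35347. Between 1.07% and 24.5% of rows lacked a value on the KO arrays, against 2.45% to 15.3% on the WT arrays, and the SD over rows was 0.136 to 0.192 on the KO arrays, against 0.148 to 0.159 on the WT arrays. Their part in these differences was not tested.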

How the results depend on the processing

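None of the rows named by their rank changed sign under any alternative run, and by least squares without moderation all of them lost their call. With turned ratios, the count in KO (4047) stayed within 1.5 times in 13 of 18 alternatives. It was 1 by least squares without moderation and 1865 with KO replicates 1 and 3, and 2 and 4, averaged, and leaving out one KO array gave 1935 to 3879 (1935 without KO replicate 1, 2231 without 2, 2170 without 3). As deposited, the KO count of 1 became 0 without a dye term, by least squares and in one fit over all 8 arrays (794, 2320 and 3083 rows at an unadjusted p under 0.05). It became 2 with robust eBayes, array weights or a prior spread that follows shared values, and 533 with averaged pairs. Without the rows whose ratios were smallest in root mean square it was 250. That filter uses the values under test, and limma's prior then leaves no spread of its own to a row. Leaving out one KO array gave 0 to 51 (0 without KO replicate 2). The median size of the ratios called in KO (0.27) was 1.455 by least squares, from 1 row, 0.239 in one fit over all 8 arrays, 0.332 with averaged pairs and 0.307 to 0.350 without one KO array. The KO minus WT count with turned ratios (5016) was 70 by least squares and 2917 to 4427 without one array (3328 without KO replicate 3, 3066 and 2917 without WT replicates 1 and 2). As deposited (106) it was 17 without a dye term, 16 with one dye term for both genotypes, 171 with arrays scaled, 0 by least squares (3140 rows at an unadjusted p under 0.05) and 38 to 146 without one array (38, 62 and 61 without KO replicates 1, 2 and 3, 57 and 43 without WT replicates 1 and 2). The cause was not tested, beyond fewer arrays and rows in the fits that leave one out. A replicate block could only be fitted with one dye term for both genotypes, and gave 3625 rows of 25382 with turned ratios and 89 as deposited. Row 35347 lost its call in 11 of 22 alternatives, row 30352 in 4 of 18 and row 42029 in 2 of 22. Averaged pairs, the running median along the rows, the fit on rows that least often share values, the prior that follows shared values and the block with one dye term were chosen after seeing the data. Signal over background is unknown here, so its limit could not be given.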

Other observations

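Deposited values were slightly more alike in rows that lie a multiple of 215 rows apart, the distance between 150 and 300 rows at which this was most marked on the KO arrays. The mean correlation at such distances was 0.043, 0.038, 0.021 and 0.024 on KO replicates 1 to 4, against 0.0076, 0.020, 0.013 and 0.016 at other distances on the same arrays. The distance was chosen by this same correlation on the KO arrays, so their higher values at its multiples are not a separate result. On WT replicates 1 to 4, which had no part in the choice, it was 0.0039, 0.0042, 0.00044 and 0.0027. At other distances it was 0.0013, 0.00042, -0.00039 and 0.00059 on the WT arrays, so it was slightly higher at multiples of 215 on each of them. The part of this likeness in the KO calls was not tested.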
